A study of Xenopus laevis with 6 samples.

Results

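Solute carriers are membrane proteins that move nutrients, ions and metabolites across the plasma membrane and the membranes of organelles. They were described here in Xenopus laevis animal caps, explants of early ectoderm that can still form several tissues, taken at gastrula stage 10.5. A gene was a member when the platform's annotation gave its probe set a single symbol beginning with slc and a number, and for genes with several probe sets the one with the highest mean over all arrays stood for the gene. The rule found 120 genes, among 7531 genes named by a single symbol and 15491 probe sets tested. They came from 131 probe sets, and 11 genes had more than 1. By substrate, 19 genes carried amino acids, 11 sugars, 19 ions and 44 other solutes, and 25 were members of the mitochondrial carrier family. The remaining 2 genes, both copies of slc9a3r1, carry the symbol of a transporter but encode a scaffold protein that binds transporters, and are no carriers.

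Total RNA was hybridised to 6 Affymetrix arrays, 2 for each of 3 groups: uninjected caps, caps expressing Mixer after injection, and caps expressing Sox17beta after injection. Both factors bind DNA and are known to drive endoderm formation, Mixer through a homeodomain and Sox17beta through an HMG box. All caps were of mixed gender and the same stage. The labels state neither the injected dose nor the number of caps per sample, and the groups include no control injection, so the injection itself and the injected factor cannot be told apart. Whether the replicates came from separate clutches is not stated, and the spread behind each p-value may therefore be technical. The genome of this species is duplicated: symbols ending in .L lie on the long and those in .S on the short chromosome of each pair of related chromosomes, and a probe set for either copy may also read the other.

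The solute carrier families are numbered by sequence relation, and members of a family tend to carry related solutes. In amphibian embryos before feeding, yolk platelets inside each cell supply nutrients, and carriers move sugars, amino acids and ions across cell and organelle membranes. Some amino acid carriers work as pairs of a heavy chain, slc3a2, and a light chain such as slc7a5 or slc7a8. The roles given below are those of the mammalian genes of the same symbol.

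The deposited values are log2 expression values after RMA, a method that brings arrays to a common distribution. Array medians lay between 6.49 and 6.54, and the medians of the solute carriers between 6.72 and 6.77. As a gauge of background, 44 control probe sets for RNAs that the caps should lack, Bacillus subtilis transcripts and synthetic tags, had highest readings between 5.9 and 6.62 log2 units, the top value on the first Sox17beta array. On all 6 arrays 60 solute carriers read above the highest of these controls, and 36 did so on none. The arrays numbered 2 differed from those numbered 1 in every group: averaged over the 3 groups, 29 of 120 solute carriers, or 24.2%, differed by more than 0.5 log2 units between the numbers, against 24.5% of all probe sets tested. The mean of 18 hybridization controls also followed the number, at 10.44, 10.56 and 10.47 on the arrays numbered 1 and 9.21, 8.89 and 9.25 on those numbered 2 (uninjected, Mixer and Sox17beta). On Sox17beta replicate 1, 48.5% of probe sets read above the highest absent control, against 57.8% to 60.7% on the others. That control read 6.62 on this array and 5.9 to 6.09 on the others, while the array's median, 6.54, was not lower. The smaller share is thus no measure of weaker signal on that array. The part of these array differences in the results was not tested. Each injected gene read highest in the caps labelled with it. mixer.L read 6.46 and 6.54 in uninjected caps, 14.07 and 14.06 in Mixer caps, and 6.83 and 6.53 in Sox17beta caps. sox17b.1.S read 6.91 and 6.70 in uninjected caps, 13.11 and 13.9 in Sox17beta caps, and 9.63 and 9.33 in Mixer caps. Mixer caps thus also held more sox17b.1.S than uninjected caps, by 2.67 log2 units. The part of this rise in the Mixer differences below was not tested.

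Differences were tested with limma over all probe sets, and a gene was called at a Benjamini-Hochberg adjusted p under 0.05. Without a block for the replicate number, limma called none of the 120 solute carriers in any comparison. At an unadjusted p under 0.05 that fit held 7 of them for Mixer against uninjected, 19 for Sox17beta against uninjected and 12 for Mixer against Sox17beta. At the same unadjusted threshold it held 445, 969 and 615 of all 15491 probe sets in these comparisons. At the adjusted p under 0.05 it called 0.0387%, 0.0194% and 0.0581% of all probe sets. The samples of equal replicate number deviated together from their group means, so the fit with the number as a block is given beside it, and "rose", "fell" and "called" below refer to this blocked fit. All calls of solute carriers rest on it: their adjusted p without the block ran from 0.177 to 1.0. On simulated data, scored for Mixer against uninjected only, the blocked fit made more false calls than its threshold allows. Standard errors (SE) are those of the blocked fit. Both comparisons against uninjected caps used the same uninjected arrays.

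With the block, 4 solute carriers fell in Mixer caps and none rose, which is 3.33% of 120. Over all probe sets the share called higher in Mixer caps was 0.536% and the share called lower 0.775%. In Sox17beta caps 6 rose and 9 fell, or 5.0% and 7.5%, against 1.88% of all probe sets called higher and 3.56% called lower. In Mixer against Sox17beta, 2 solute carriers were higher in Mixer caps and 7 lower, or 1.67% and 5.83%. Of all probe sets 1.0% were called higher and 0.555% lower. The 7531 named genes, with 1 probe set each, are chosen as the members were. Of these, 0.744% were called higher and 0.81% lower for Mixer, and 2.03% and 3.9% for Sox17beta. For Mixer against Sox17beta their shares were 1.2% and 0.651%. The median difference of the 120 genes was 0.04, 0.03 and 0.01 log2 units in these comparisons, and that of all probe sets 0.03, 0.04 and -0.03. Within 0.5 log2 units of no difference lay 112, 98 and 105 of the 120 genes, and 14625, 14099 and 14563 of all 15491 probe sets. The called differences were of the same sign within both replicate numbers for 4 of 4, 15 of 15 and 9 of 9 genes. The blocked fit favours differences that agree between the numbers, so this adds no support to the calls. The groups did not overlap for 4, 12 and 8 of the called genes. Calling by size of difference favours this too, and the share without overlap among all probe sets was not counted.

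**Figure D1:**
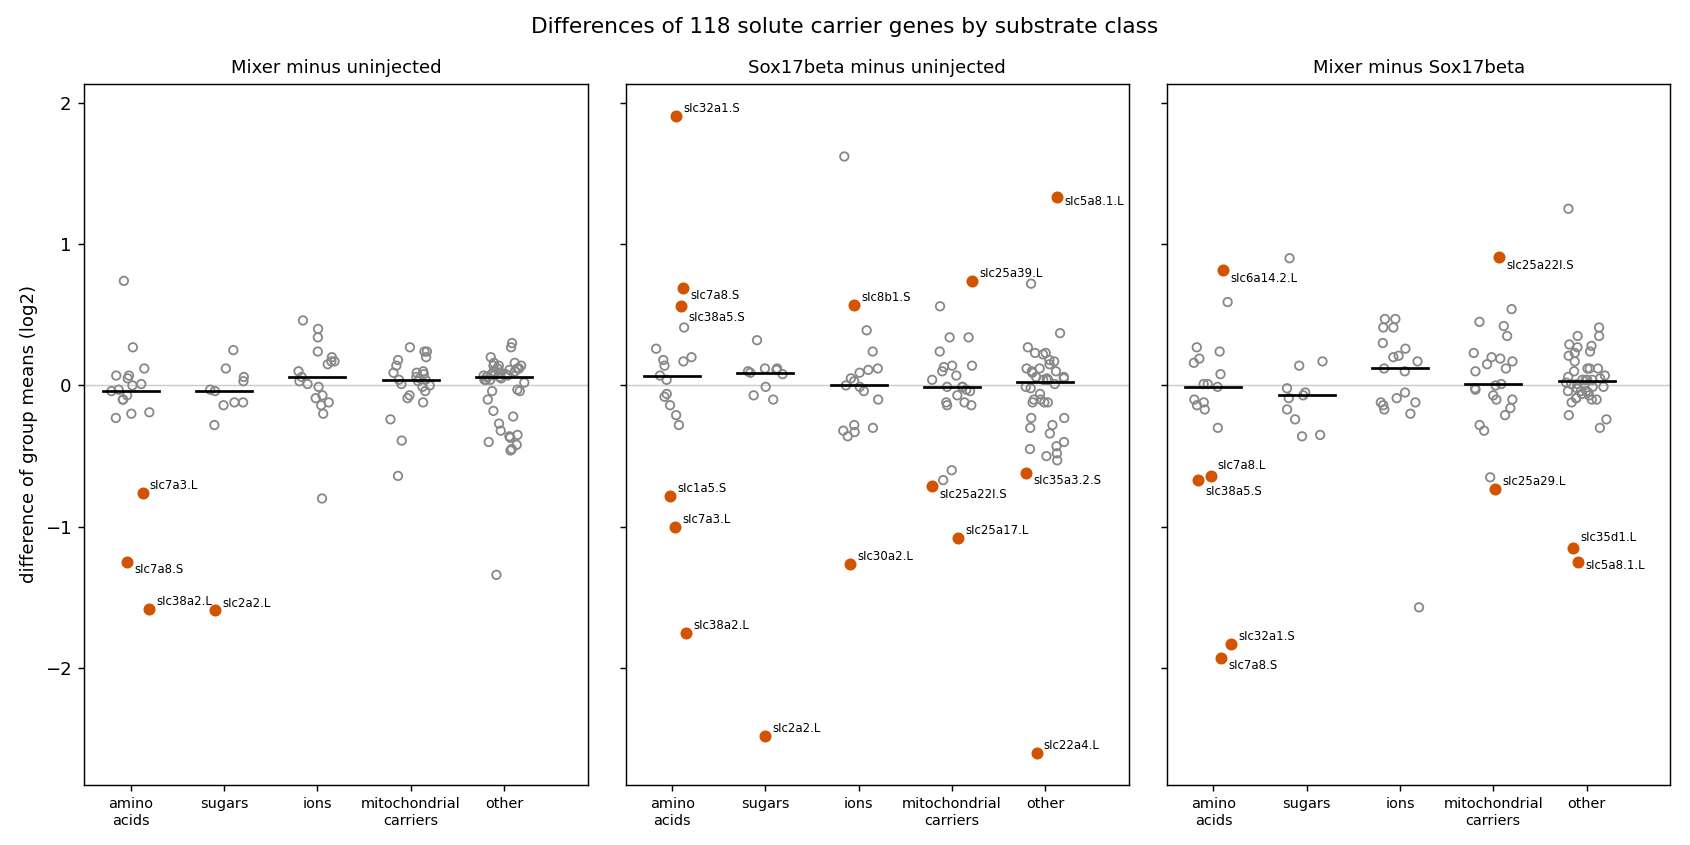
Difference of group means on the log2 scale (vertical axis) for 118 solute carrier genes, the scaffold genes left out, by substrate class (horizontal axis) in the 3 comparisons. Filled orange points with names are genes called by limma with the replicate block, open circles the others, and bars the class medians, which lie between -0.07 and 0.12. Most genes sit near 0, and all 4 genes called for Mixer against uninjected are amino acid or sugar carriers below 0.

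The amino acid carriers held the most calls of any class. In Mixer caps 3 of 19 fell and none rose, in Sox17beta caps 3 rose and 3 fell, and between the injected groups 1 was higher and 4 were lower in Mixer caps. With Mixer 15.8% of the class were called lower, against 0.81% of all named genes. With Sox17beta 15.8% were called higher and 15.8% lower, against 2.03% and 3.9%. Between the injected groups the shares were 5.26% and 21.1%, against 1.2% and 0.651%. The class medians were -0.04 for Mixer and 0.07 for Sox17beta, close to those of all probe sets. On all 6 arrays 4 of the 19 read above the highest absent control, and 8 on none.

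slc7a3.L, a carrier of arginine, lysine and other cationic amino acids, fell in both kinds of injected caps. It read 9.14 and 9.44 in uninjected, 8.30 and 8.77 in Mixer, and 8.14 and 8.44 in Sox17beta caps. All injected arrays lay below both uninjected arrays, and all 6 were well over the absent controls. The fall was 1.69-fold in Mixer caps (log2 difference -0.76, SE 0.11, limma adjusted p = 0.0331) and 2.0-fold in Sox17beta caps (-1.0, adjusted p = 0.00572). The Mixer and Sox17beta caps differed from each other by 0.24, which was not called (adjusted p = 0.384).

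slc38a2.L, which brings small neutral amino acids such as alanine and glutamine into the cell with sodium, also fell with both factors. Its readings were 6.49 and 6.63 in uninjected, 4.80 and 5.15 in Mixer, and 5.04 and 4.59 in Sox17beta caps. The injected arrays lay apart from the uninjected ones and within the range of the absent controls, of which 9, 6, 11 and 14 of 44 read as high or higher on those arrays. The log2 difference was -1.58 with Mixer (SE 0.19, limma adjusted p = 0.021) and -1.75 with Sox17beta (adjusted p = 0.00554). Since the lower level could not be told from background, no fold is given. The injected groups differed by 0.16 (adjusted p = 0.745).

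slc7a8.S, a light chain that exchanges neutral amino acids, moved in opposite directions. It read 6.26 and 6.05 in uninjected, 4.96 and 4.86 in Mixer, and 7.14 and 6.54 in Sox17beta caps. The 3 groups did not overlap: Mixer was lowest and Sox17beta highest, and the Mixer readings were within the range of the absent controls, 6 and 9 of which read at least as high. It fell by 1.25 on the log2 scale with Mixer (SE 0.14, limma adjusted p = 0.0203) and rose by 0.69, or 1.61-fold, with Sox17beta (adjusted p = 0.0435). The difference between the injected groups, -1.93 log2 units, was itself called (adjusted p = 0.00323).

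Its other copy, slc7a8.L, read 5.62 and 5.95 in uninjected, 5.39 and 5.72 in Mixer, and 6.02 and 6.37 in Sox17beta caps. Both Sox17beta arrays lay above the rest, while uninjected and Mixer overlapped, and only the second Sox17beta array read above the highest absent control. Neither difference from uninjected was called (-0.23, adjusted p = 0.457, and 0.41, adjusted p = 0.0827), but Mixer was below Sox17beta (difference -0.64, SE 0.10, limma adjusted p = 0.0388), a size that rests on readings near background. The partner chain slc3a2 was not called in either copy. slc3a2.S read 5.89 and 4.74 in uninjected, 6.30 and 4.57 in Mixer, and 5.78 and 4.56 in Sox17beta caps, so it followed the replicate number, with a mean gap of -1.37. slc3a2.L ran from 4.69 to 4.98 over the 6 arrays, within the absent controls. The related light chain slc7a5.L, which carries large neutral amino acids, ran from 5.38 to 5.76 and was not called either.

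slc1a5.S, which carries glutamine and other neutral amino acids, fell with Sox17beta. It read 8.30 and 8.09 in uninjected, 8.23 and 7.78 in Mixer, and 7.64 and 7.19 in Sox17beta caps. Sox17beta arrays lay lowest and did not overlap the others, and Mixer overlapped uninjected. The Sox17beta fall was 1.72-fold (log2 difference -0.78, SE 0.12, limma adjusted p = 0.0132), the Mixer difference was -0.19 (adjusted p = 0.627), and that between the injected groups 0.59 (adjusted p = 0.0691).

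slc6a14.2.L, which takes up neutral and cationic amino acids with sodium and chloride, was called between the injected groups only. It read 9.24 and 9.09 in uninjected, 9.78 and 10.04 in Mixer, and 8.94 and 9.23 in Sox17beta caps. The Mixer arrays were above all others, and Sox17beta overlapped uninjected. Mixer exceeded Sox17beta 1.77-fold (log2 difference 0.82, SE 0.14, limma adjusted p = 0.0454). Mixer against uninjected gave 0.74 (adjusted p = 0.0648) and Sox17beta against uninjected -0.08 (adjusted p = 0.815).

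The other amino acid carriers called were near or below background in every group. slc32a1.S, which loads GABA and glycine into synaptic vesicles, read 3.51 and 3.70 in uninjected, 3.66 and 3.70 in Mixer, and 5.06 and 5.97 in Sox17beta caps. Both Sox17beta arrays were apart from the rest, yet 11 and 1 of the 44 absent controls read as high. It rose by 1.91 log2 units with Sox17beta (SE 0.21, limma adjusted p = 0.0055) and was 1.83 lower in Mixer than Sox17beta caps (difference -1.83, adjusted p = 0.0108). slc38a5.S, a carrier of glutamine and related amino acids, read 4.66 and 4.53 in uninjected, 4.51 and 4.47 in Mixer, and 5.13 and 5.18 in Sox17beta caps. Here too the Sox17beta arrays alone were higher, with 8 and 6 absent controls at or over them. Its rise was 0.56 (SE 0.11, limma adjusted p = 0.0337), and Mixer against Sox17beta gave -0.67 (adjusted p = 0.041). No fold is given for either gene, as neither group compared read above the highest absent control.

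**Figure D2:**
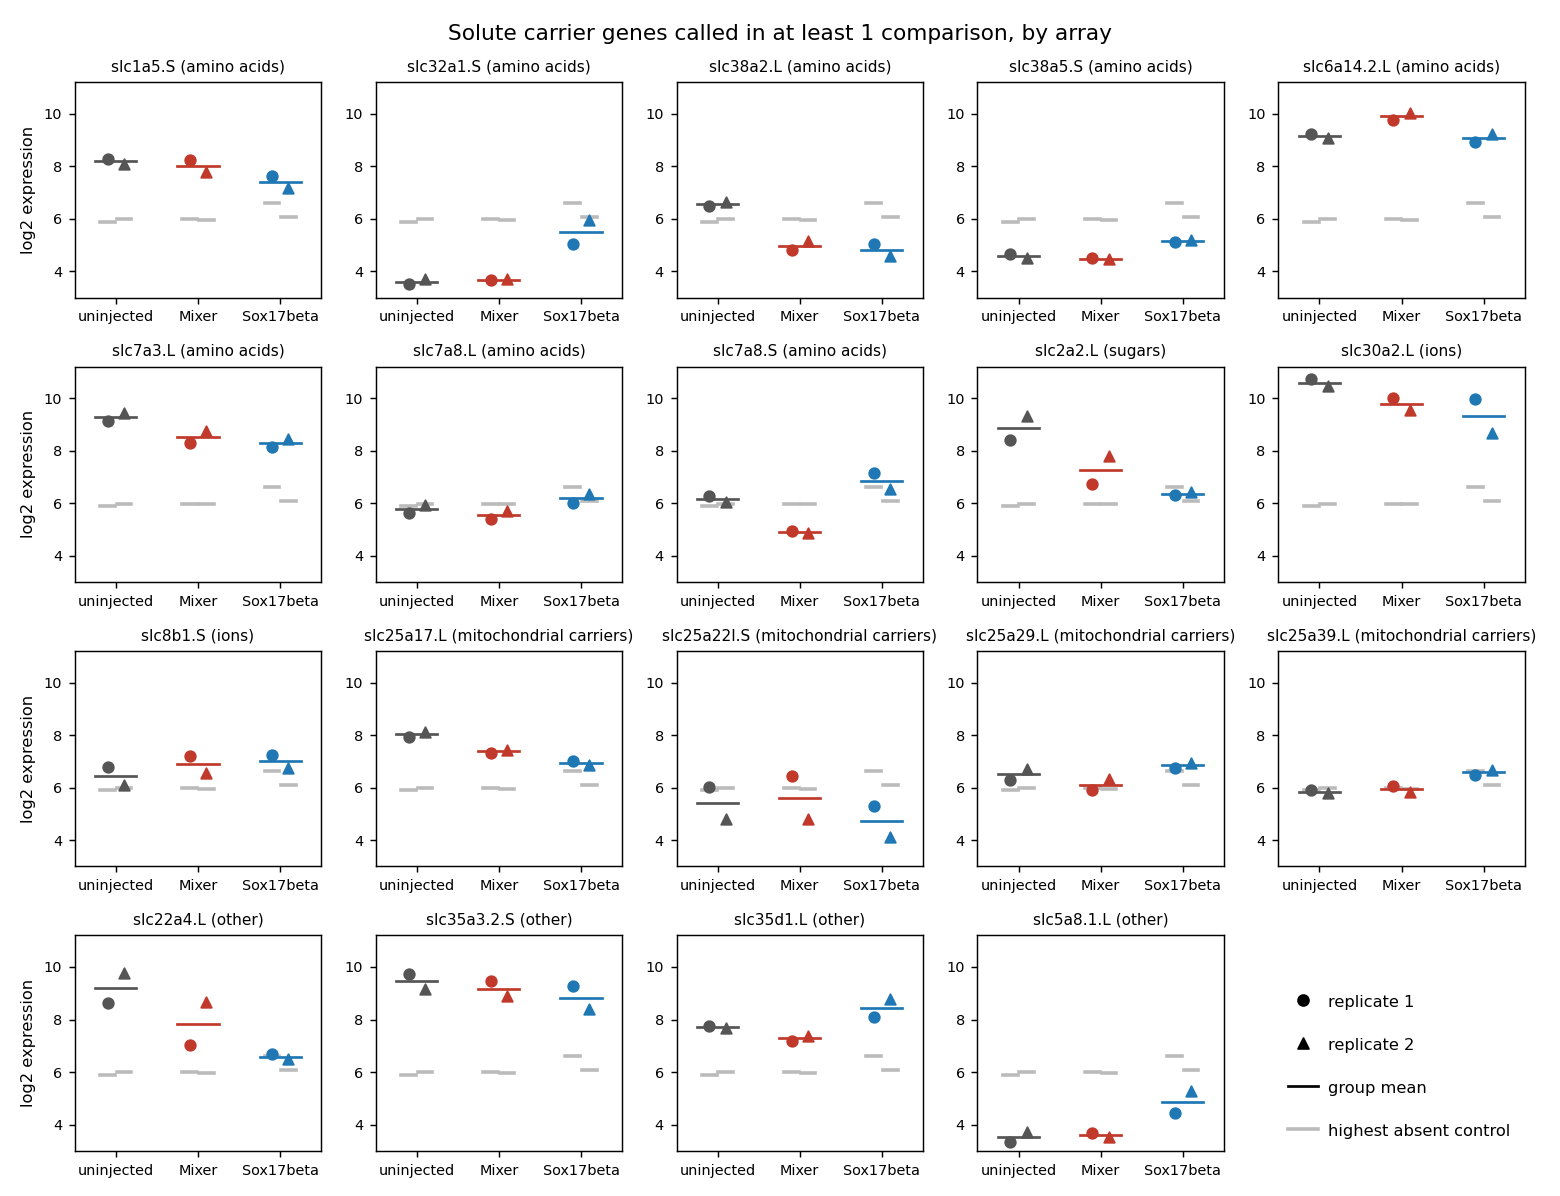
Log2 expression on each array (vertical axis) for the 19 solute carrier genes called in at least 1 comparison with the replicate block, by group (horizontal axis). Circles are replicate 1, triangles replicate 2, coloured bars group means and grey bars the highest absent control of each array. slc2a2.L and slc22a4.L are highest in uninjected caps, and slc32a1.S and slc5a8.1.L rise only toward the grey bars.

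None of 11 sugar carriers rose. With each factor 1 fell, or 9.09%, against 0.81% (Mixer) and 3.9% (Sox17beta) of all named genes. That gene was slc2a2.L, a facilitative glucose carrier (GLUT2) known from liver, intestine and the insulin-secreting cells of the pancreas. It read 8.40 and 9.31 in uninjected, 6.72 and 7.81 in Mixer, and 6.30 and 6.44 in Sox17beta caps. The uninjected arrays were highest and the Sox17beta arrays lowest, with no overlap between any of the groups. The fall was 3.01-fold with Mixer (log2 difference -1.59, SE 0.22, limma adjusted p = 0.0293) and the difference with Sox17beta was -2.48 (adjusted p = 0.00319). No fold is given for Sox17beta, because its first array read below the highest absent control of that array, 1 of the 44 controls being as high. Within replicate numbers 1 and 2 the differences were -1.68 and -1.5 for Mixer, and -2.1 and -2.87 for Sox17beta. Mixer and Sox17beta caps differed by 0.9 (adjusted p = 0.125), which was not called.

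The glucose carriers thought of as general suppliers were not called. slc2a1.L (GLUT1) read 6.26 and 6.68 in uninjected, 6.14 and 6.24 in Mixer, and 6.54 and 6.56 in Sox17beta caps. slc2a3.L (GLUT3) ran from 5.31 to 5.70 over the 6 arrays, below the highest absent control of each. Their differences from uninjected ran from -0.28 to 0.10. Of the 11 sugar carriers, 7 did not read above the highest absent control on any array.

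Of 19 ion carriers, none was called for Mixer and 1 rose and 1 fell with Sox17beta. The Sox17beta shares were 5.26% each, against 2.03% of all named genes called higher and 3.9% called lower. slc30a2.L, which moves zinc from the cytosol into vesicles, read 10.72 and 10.46 in uninjected, 10.02 and 9.57 in Mixer, and 9.98 and 8.68 in Sox17beta caps. The injected arrays all lay below the uninjected ones, and the Sox17beta replicates were far apart. The Sox17beta fall was 2.39-fold (log2 difference -1.26, SE 0.24, limma adjusted p = 0.0288), and the Mixer difference of -0.8 was not called (adjusted p = 0.21). slc8b1.S, a sodium and calcium exchanger of mitochondria, read 6.77 and 6.09 in uninjected, 7.22 and 6.55 in Mixer, and 7.25 and 6.75 in Sox17beta caps. Its groups overlapped, and its Sox17beta rise of 0.57 (1.48-fold, SE 0.11, limma adjusted p = 0.0331) appeared within replicate numbers, as 0.48 and 0.66. The Mixer difference was 0.46 (adjusted p = 0.131).

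The largest uncalled difference of the class was that of slc26a4l.L, named after an exchanger of chloride and other anions. It read 3.86 and 4.05 in uninjected, 4.01 and 4.01 in Mixer, and 4.71 and 6.45 in Sox17beta caps. A single Sox17beta array held most of the difference of 1.62 (limma adjusted p = 0.0625), and that array alone read above the highest absent control. The plasma membrane zinc exporter slc30a1.L ran from 8.87 to 9.59. The phosphate carrier slc20a1.L read 9.54 and 8.64 in uninjected, 9.88 and 9.09 in Mixer, and 9.54 and 8.61 in Sox17beta caps, so its replicate numbers stood further apart than its groups. Replicate gaps over 0.5 log2 units were found in 9 of the 19 ion carriers, 9 of 25 mitochondrial carriers, 9 of 44 other carriers, and 1 each of the amino acid and sugar carriers.

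Of 25 genes of the mitochondrial carrier family, none was called for Mixer, and 1 rose and 2 fell with Sox17beta. These were 4.0% and 8.0%, against 2.03% and 3.9% of all named genes. Between the injected groups 1 was higher and 1 lower in Mixer caps, or 4.0% each, against 1.2% and 0.651%. The main carriers of energy metabolism were not among the called genes. slc25a5.L, an exchanger of ADP and ATP, read 11.63 and 11.79 in uninjected, 11.34 and 11.90 in Mixer, and 11.59 and 11.69 in Sox17beta caps. slc25a3.L, the phosphate carrier, ran from 10.05 to 10.15. Their differences from uninjected lay between -0.09 and 0.04, and neither gene was called.

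slc25a17.L belongs to the family by sequence but carries cofactors in the peroxisome membrane. It read 7.93 and 8.12 in uninjected, 7.33 and 7.44 in Mixer, and 7.01 and 6.87 in Sox17beta caps. The groups did not overlap, with uninjected highest and Sox17beta lowest. It fell 2.12-fold with Sox17beta (log2 difference -1.08, SE 0.12, limma adjusted p = 0.00599), and the Mixer difference of -0.64 was not called (adjusted p = 0.0706). slc25a39.L, which brings glutathione into mitochondria, read 5.91 and 5.79 in uninjected, 6.07 and 5.82 in Mixer, and 6.49 and 6.69 in Sox17beta caps. Only the Sox17beta arrays stood apart. In each group 1 of the 2 arrays read below the highest absent control, so no fold is given for its rise with Sox17beta (log2 difference 0.74, SE 0.14, limma adjusted p = 0.028).

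slc25a22l.S, named after a mitochondrial glutamate carrier, read 6.03 and 4.82 in uninjected, 6.43 and 4.81 in Mixer, and 5.32 and 4.11 in Sox17beta caps. Replicate 1 was above replicate 2 in every group, the groups overlapped, and 5 and 19 absent controls read at or above the Sox17beta values. The second uninjected and second Mixer arrays were also within the absent controls, 11 and 10 of which read at least as high. slc25a22l.S fell by 0.71 on the log2 scale with Sox17beta, by the same amount within both numbers (SE 0.14, limma adjusted p = 0.0325). Mixer was 0.91 above Sox17beta (limma adjusted p = 0.0305). With these readings in background, the sizes of both differences are uncertain. slc25a29.L, which carries arginine and lysine into mitochondria, read 6.30 and 6.71 in uninjected, 5.90 and 6.34 in Mixer, and 6.75 and 6.95 in Sox17beta caps. The Mixer arrays lay below the Sox17beta arrays, and uninjected lay between them and overlapped Mixer. Mixer was below Sox17beta (log2 difference -0.73, SE 0.12, limma adjusted p = 0.0343), with the first Mixer array under the highest absent control, while the differences from uninjected, -0.39 and 0.34, were not called (adjusted p = 0.217 and 0.176).

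Among the 44 carriers of other solutes, none was called for Mixer, 1 rose and 2 fell with Sox17beta, and 2 were lower in Mixer than in Sox17beta caps. The Sox17beta shares, 2.27% and 4.55%, stood near those of all named genes, 2.03% and 3.9%. The share lower in Mixer than Sox17beta caps was 4.55%, against 0.651% of all named genes. slc22a4.L, a carrier of organic cations and ergothioneine, fell with Sox17beta. It read 8.61 and 9.77 in uninjected, 7.02 and 8.67 in Mixer, and 6.69 and 6.49 in Sox17beta caps. Mixer replicate 2 read slightly above uninjected replicate 1, so those groups overlapped, while the Sox17beta arrays were lowest. The Sox17beta fall was 6.06-fold (log2 difference -2.6, SE 0.38, limma adjusted p = 0.012), and the Mixer difference of -1.34 was not called (adjusted p = 0.188). With the block, the Sox17beta difference was -3.4 without Sox17beta replicate 1 and -1.8 without Sox17beta replicate 2. For its relative slc22a5.L, the carnitine carrier, the chosen probe set gave -0.48 with Sox17beta (adjusted p = 0.113) and the gene's other probe set -0.65 (adjusted p = 0.0207), so its probe sets disagreed on the call.

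slc5a8.1.L, a sodium-coupled carrier of lactate, butyrate and other monocarboxylates, read 3.35 and 3.70 in uninjected, 3.68 and 3.54 in Mixer, and 4.43 and 5.29 in Sox17beta caps. The Sox17beta arrays were apart from the others but below the highest absent control, with 18 and 5 controls as high. It rose by 1.33 log2 units with Sox17beta (SE 0.22, limma adjusted p = 0.0177), and Mixer was 1.25 below Sox17beta (difference -1.25, adjusted p = 0.049). The lactate carriers of family 16 were not called. slc16a1.S ran from 6.21 to 6.85, and slc16a3.L read 11.75 and 11.77 in uninjected, 11.45 and 11.16 in Mixer, and 11.53 and 11.10 in Sox17beta caps. All 4 injected arrays of slc16a3.L lay below the uninjected ones, by 0.46 and 0.45 on average (adjusted p = 0.216 and 0.142).

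Nucleotide sugar carriers of family 35 supply the Golgi and endoplasmic reticulum with the building blocks of glycans. slc35d1.L, which carries UDP-glucuronic acid and UDP-N-acetylgalactosamine, read 7.77 and 7.66 in uninjected, 7.20 and 7.39 in Mixer, and 8.10 and 8.78 in Sox17beta caps. Mixer was lowest and Sox17beta highest, with no overlap. Mixer was 2.21-fold below Sox17beta (log2 difference -1.15, SE 0.18, limma adjusted p = 0.0366), and neither difference from uninjected was called (-0.42, adjusted p = 0.435, and 0.72, adjusted p = 0.0823). slc35a3.2.S, named after a carrier of UDP-N-acetylglucosamine, read 9.72 and 9.18 in uninjected, 9.45 and 8.91 in Mixer, and 9.26 and 8.39 in Sox17beta caps. Its groups overlapped, and its Sox17beta fall of 1.54-fold (log2 difference -0.62, SE 0.13, limma adjusted p = 0.0385) was seen within both numbers, as -0.46 and -0.79.

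**Figure D3:**
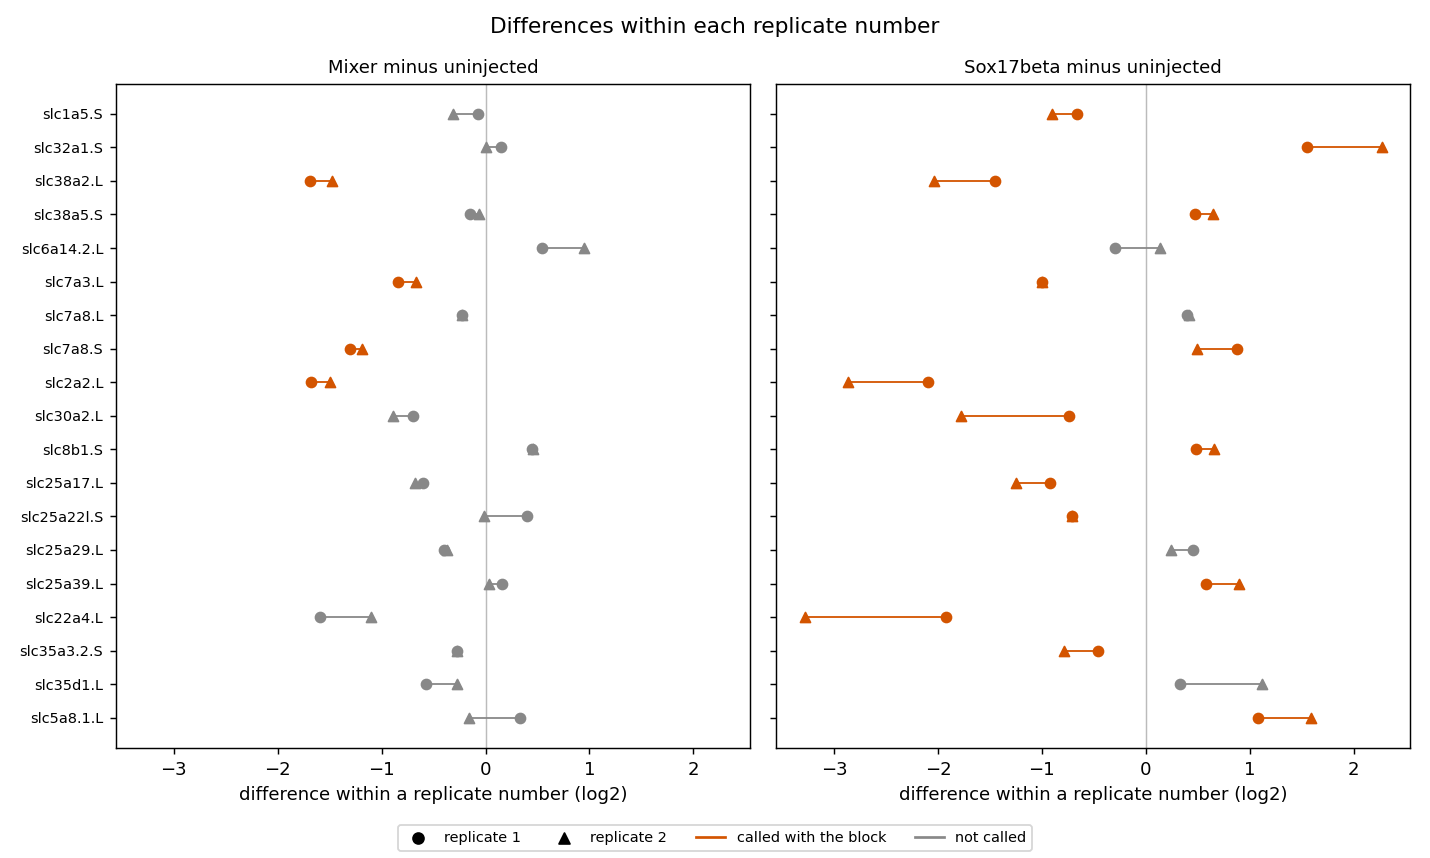
Difference from uninjected caps within each replicate number, on the log2 scale (horizontal axis), for the 19 called genes (vertical axis). Circles are replicate 1, triangles replicate 2, orange marks genes called with the block in that comparison and grey those not called. For slc22a4.L with Sox17beta the replicate numbers gave -1.92 and -3.28, the widest gap, and both lie below 0.

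For 16 genes both the .L and the .S copy were measured, and whether the copies changed unequally was tested as the difference of their log2 values, a test added after the data were seen. With the block, limma called 0, 1 and 1 of the 16 pairs in the Mixer, the Sox17beta and the direct comparison. Over all 1017 pairs of the array the shares called were 0.393%, 3.64% and 1.08%. Without the block none of the 16 was called, and over all pairs 1, 1 and 2 were called. At an unadjusted p under 0.05 the fit without the block held 2, 1 and 1 of the 16, against 41, 63 and 40 of the 1017 pairs.

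With Sox17beta the difference between the slc25a17 copies was called, but only with the block. slc25a17.S read 7.49 and 7.09 in uninjected, 7.61 and 7.14 in Mixer, and 7.40 and 6.90 in Sox17beta caps. Its groups overlapped, unlike those of slc25a17.L. The change of the .L copy was 0.94 log2 units lower than that of the .S copy (-0.94, SE 0.13, limma adjusted p = 0.0186; without the block adjusted p = 0.577). For slc7a8 the difference between Mixer and Sox17beta readings was 1.29 log2 units wider for the .S copy (SE 0.16, limma adjusted p = 0.0342; without the block adjusted p = 0.923). Since slc7a8.L read above the highest absent control on 1 of 6 arrays and slc7a8.S on neither Mixer array, this does not show that the copies changed unequally. For slc1a5 the .S copy was called with Sox17beta and the .L copy was not, with readings of 6.57 and 6.75 in uninjected, 6.38 and 6.55 in Mixer, and 6.28 and 6.49 in Sox17beta caps. The difference between the slc1a5 copies, 0.51, was not called (adjusted p = 0.112).

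**Figure D4:**
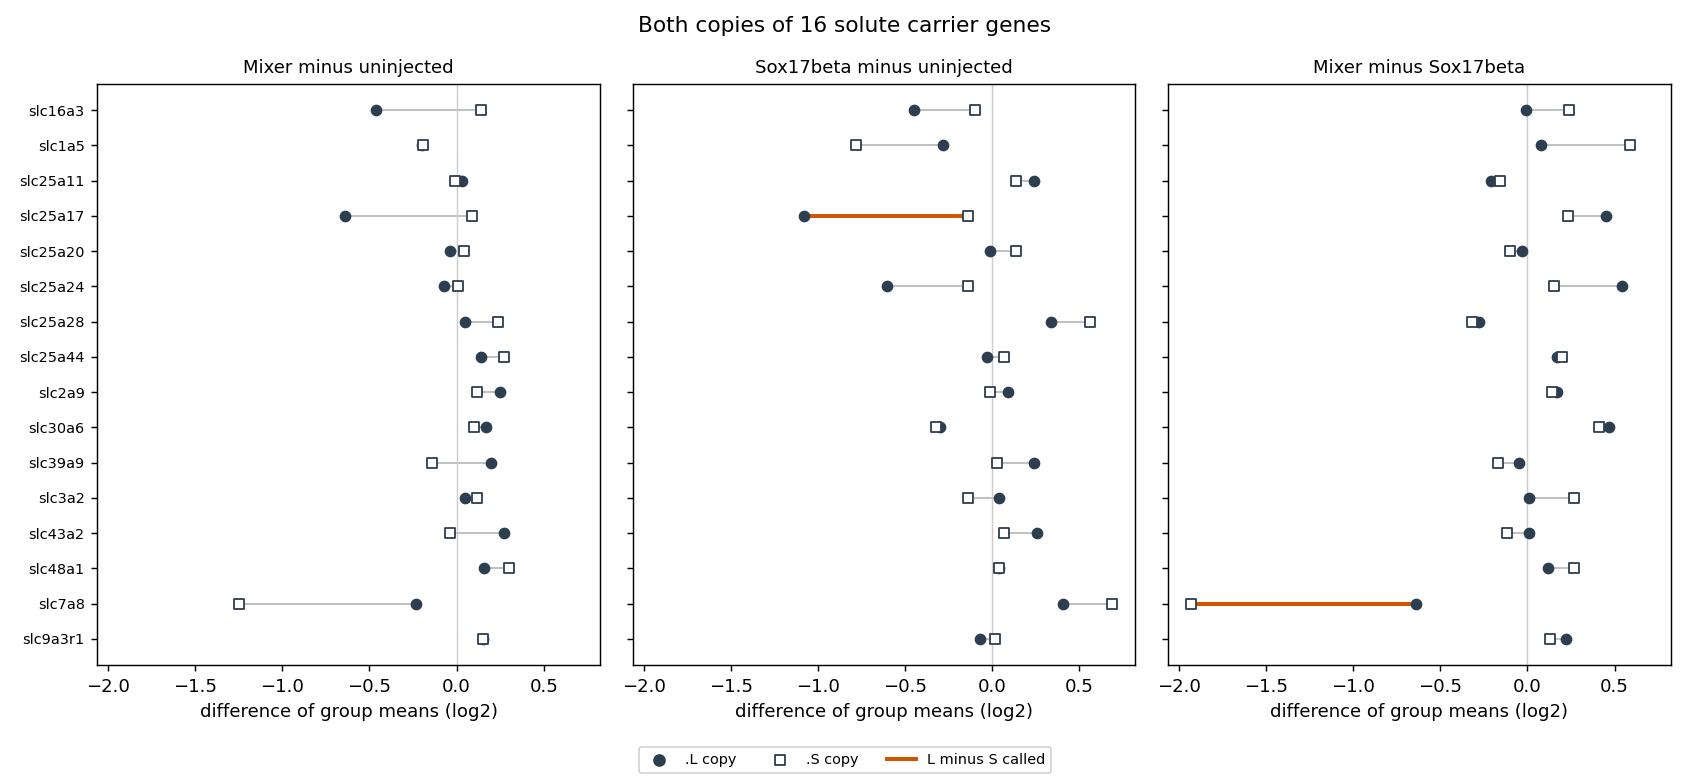
Difference of group means on the log2 scale (horizontal axis) for the .L copy (filled circles) and the .S copy (open squares) of 16 solute carrier genes (vertical axis) in the 3 comparisons. Orange lines mark pairs called in the test of the copies' difference with the block, slc25a17 for Sox17beta against uninjected and slc7a8 for Mixer against Sox17beta, where slc7a8 readings were partly within the absent controls.

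Among 38 other genes with symbols of pumps, water channels and ABC proteins, 2 fell and none rose with each factor. These were 5.26% of the list, against 0.775% of all probe sets called lower with Mixer and 3.56% with Sox17beta. The list took ABC genes by symbol, and abce1.S, abcf1.L, abcf2.L, abcf3.L and abcf3.S act in ribosome recycling and translation rather than transport. atp1b2.L, a beta subunit of the sodium pump, read 7.87 and 8.62 in uninjected, 6.53 and 7.49 in Mixer, and 6.54 and 6.98 in Sox17beta caps. The injected arrays were all lower, with a difference of -1.24 for Mixer (limma adjusted p = 0.0203) and -1.49 for Sox17beta (adjusted p = 0.00423). atp6v1al.L, named after a subunit of the vacuolar proton pump, fell too, with differences of -0.84 (adjusted p = 0.0302) and -0.68 (adjusted p = 0.0229). Of 10 genes known to respond to amino acid shortage, 1 rose with each factor, against 0.536% of all probe sets called higher with Mixer and 1.88% with Sox17beta: ddit4.S, an inhibitor of the growth kinase mTORC1, by 1.89 with Mixer (adjusted p = 0.027), and vldlr.S, a lipoprotein receptor, by 1.65 with Sox17beta (adjusted p = 0.0262).

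Tissue markers moved with the same arrays. The mean log2 level of 15 epidermal markers was 8.34 to 9.11 in uninjected, 7.51 to 8.48 in Mixer and 6.47 to 7.05 in Sox17beta caps. Their median difference from uninjected was -1.0 with Mixer and -1.94 with Sox17beta. With the block 12 fell with Sox17beta, while 1 rose (itln1.L, 3.65) and 1 fell (dlx5.L, -1.49) with Mixer. Over all probe sets 0.536% were called higher and 0.775% lower with Mixer, and 1.88% and 3.56% with Sox17beta. Of 13 endoderm markers 6 rose with Mixer and 3 with Sox17beta, their mean level being 5.0 to 5.08, 6.42 to 7.05 and 5.62 to 5.73 in the 3 groups. Of 11 organizer markers 6 rose with Sox17beta and none was called with Mixer, with mean levels of 4.82 to 4.87, 4.92 to 5.3 and 5.91 to 5.97. Between the injected groups 1 of the 11 was higher in Mixer caps, not.L (1.8, limma adjusted p = 0.0182), and 5 were lower. Of all probe sets 1.0% were called higher and 0.555% lower there. With Sox17beta not.L differed from uninjected caps by -0.86, which was not called. Mesoderm markers rose in 3 of 13 with Mixer, aplnr.L, wnt11b.L and wnt8a.L, and in 2 of 13 with Sox17beta, aplnr.L and wnt8a.L. The mean levels of the 13 were 5.41 to 5.89, 6.24 to 6.56 and 5.6 to 6.22. Uncalled and below the highest absent control on every array were tbxt.S, tbx6.L, msgn1.L, myod1.L, myod1.S, myf5.L and hand1.L. Many of the endoderm, organizer and mesoderm markers read near background. In uninjected, Mixer and Sox17beta caps 1, 8 and 2 endoderm markers read above the highest absent control on both arrays of the group. For organizer markers these counts were 3, 4 and 5, and for mesoderm markers 2, 6 and 1. Of 12 neural plate markers 1 fell with Sox17beta, and the groups' mean levels overlapped, at 7.12 to 7.7, 7.25 to 7.83 and 7.09 to 7.57. None of 4 ionocyte genes, atp6v1a.L, ca12.L, foxi1.L and ubp1.L, was called, and foxi1.L was also one of the epidermal markers. The ciliated cell marker chosen, foxj1, was not among the genes measured. The part of these shifts in the solute carrier differences was not tested, and fewer cells of a type and less RNA per cell cannot be told apart in such bulk samples.

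Every blocked call rests on few arrays, and calls over all probe sets also became fewer whenever an array was left out of the blocked fit. When any single array was left out of the blocked fit, none of the 4 Mixer calls remained, and none of the 15 Sox17beta calls or 9 calls between the injected groups, except without Sox17beta replicate 1. Without that array 8 of the 15 remained, slc2a2.L, slc38a2.L, slc7a3.L, slc22a4.L, slc25a17.L, slc30a2.L, slc32a1.S and slc5a8.1.L, and 2 of the 9, slc32a1.S and slc7a8.S. The direction of each of these differences was the same under every omission. Since the blocked fit favours differences that agree between the replicate numbers, this is no separate check.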

How the data were processed

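RNA from animal caps was measured on 6 Affymetrix arrays, and the values, deposited as log2 expression for each probe set, were made by the authors with RMA, per the submitters' processing notes. The RMA version was not in those notes, and no further normalization was applied here. Differences on this scale can understate changes near background. Of 15611 probe sets 120 were controls, and the other 15491 were tested. Names came from the platform annotation, which can be old, and 118 of the 120 solute carrier genes matched RefSeq by gene ID with no symbol changed. Coordinates and sequences are not used here.

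The sample titles gave each array its group and replicate number. All 6 arrays entered 1 fit of group means (lmFit and eBayes, limma 3.58.1, R 4.3.3) with 2-sided tests and Benjamini-Hochberg adjustment over all probe sets within each comparison. The main fit had no block and left 3 residual degrees of freedom, and adding the replicate number as a block left 2. The numbers were taken as pairing the samples because deviations from the group means correlated over probe sets at 0.867 (uninjected and Mixer), 0.732 (uninjected and Sox17beta) and 0.776 (Mixer and Sox17beta). The fits were tested on simulated data with normal noise and changes in the Mixer arrays alone, scored for Mixer against uninjected. There the blocked fit made more false calls than its threshold allows. The other comparisons were not scored. Alternatives were quantile normalization, centring, a filter at the 25th percentile, an intensity trend in the prior, the mean of a gene's probe sets and leaving out each array. With 2 arrays per group, their number limits the precision.

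Members, substrate classes and marker lists were chosen with earlier results of these data known. Genes were named if called in any comparison with or without the block, as the other copy of such a gene, by the 3 smallest blocked p-values of a class in each comparison with uninjected caps, as a copy pair, or from a list of general carriers. Some genes of that list were not analysed here. The rule gave 59 genes, and those not described in the text were not called.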

Additional observations from a re-analysis of the deposited data

Results flagged for a closer look

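For 5 solute carriers Mixer and Sox17beta caps lay on opposite sides of uninjected caps within both replicate numbers, and the difference between the injected groups was called by limma with the block. Calling by the difference between the injected groups favours genes of this kind, and their share among all probe sets is not given here. Mixer minus Sox17beta was -1.93 log2 units for slc7a8.S, the light chain of a neutral amino acid exchanger, and -0.64 for its other copy slc7a8.L. It was -1.15 for slc35d1.L, a nucleotide sugar carrier, -0.73 for slc25a29.L, a mitochondrial carrier of arginine and lysine, and -0.67 for slc38a5.S, a glutamine carrier. All readings of slc38a5.S, those of slc7a8.L on all arrays but the second Sox17beta array, both Mixer readings of slc7a8.S and the first Mixer reading of slc25a29.L were below the highest absent control, so the sizes of these differences are uncertain. In each case Sox17beta was above and Mixer below uninjected caps. For slc38a5.S the Mixer differences within replicate numbers 1 and 2 were small, at -0.15 and -0.06. Only slc7a8.S was called against uninjected caps with both factors, and slc38a5.S with Sox17beta. Without the block none of the 5 differences was called.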

How the results depend on the processing

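The replicate block decided every solute carrier call. Without it 0 of 120 were called in each comparison, also with quantile normalization, centring, the filter, the intensity trend, the mean of a gene's probe sets or any array left out. With the replicate block 4, 15 and 9 were called (Mixer, Sox17beta and direct comparison), and with the block and the mean of a gene's probe sets 4, 16 and 9, where slc22a5.L was added. With the block and without Sox17beta replicate 1 the counts were 0, 10 and 3, which included slc26a4l.L in the last 2 and slc25a28.S in the Sox17beta comparison, both uncalled otherwise. Any other array left out of the blocked fit gave 0. Over all probe sets limma called 6, 3 and 9 without the block and 203, 844 and 241 with it. Quantile normalization gave 5 for Sox17beta, and the intensity trend 13 for Sox17beta and 14 for the direct comparison. Leaving out an array gave 0 to 1 for Mixer, 0 to 5 for Sox17beta and 1 for the direct comparison without the block, and 0 to 2, 0 to 582 and 0 to 136 with it, the highest of the last 2 without Sox17beta replicate 1. Leaving out an array also leaves fewer degrees of freedom, and the cause of the losses was not tested further. No blocked call changed its direction under any alternative in which its gene was tested, which the choice of genes by the blocked fit favours. The filter left 96 of 120 solute carriers. Changes of readings within the absent controls could not be sized.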
